A study of Mus musculus with 14 samples.

Results

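Nnt and 6 other genes that vary between C57BL/6 mouse substrains (Ide, Wdfy1, Entpd4, Crb1, Cyfip2 and Mmrn1) were described in pancreatic islets of Tlr2/Tlr4 knockout and wild-type mice as a check on genetic background. These are 7 of the 18820 genes measured here by a probe set with a single gene symbol. Every such probe set of the 7 symbols was taken, which gave 8 of 21218, 2 of them for Nnt. The genes were chosen by their substrain variation together with the differences between knockout and wild-type islets in these same arrays, so differences between genotypes are given for them as a description, with their standard errors and without a test.

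The arrays fall into 4 groups, all of mice fed a high-fat diet (60% fat) from 6 weeks of age. They are mice lacking both Tlr2 and Tlr4 (DKO, strain C57BL/6) after 5 weeks of diet (2 arrays), wild-type C57BL/6 (WT) mice after 5 weeks (4 arrays), DKO mice after 7 months (4 arrays) and WT mice after 7 months (4 arrays). As the labels word it, every one of the 14 arrays took islet RNA from its own mouse. The substrain of either line, the number of backcrosses and whether the WT mice were littermates are details that the sources used here do not give. Genotype and any other difference between the lines lie in the same arrays and cannot be told apart. Mice at 7 months were also older, so time on the diet and age cannot be told apart. The values are log2 signals made by RMA, a method that corrects, normalizes and summarises the probes of a set, so a difference of 1 is a doubling. RNA comes from whole islets, in which fewer cells of a type and less RNA per cell cannot be told apart.

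The inbred strain C57BL/6 was split long ago into colonies that have since gathered their own mutations. The best known in islet work is in Nnt, nicotinamide nucleotide transhydrogenase, which sits in the inner mitochondrial membrane and uses the proton gradient to pass hydride from NADH to NADP+, so that it supplies NADPH to the mitochondrial matrix. C57BL/6J mice carry a deletion of several internal exons of Nnt and lack the protein, while C57BL/6N mice keep the intact gene, and the loss has been linked with weaker insulin secretion. Ide lies with Fgfbp3 in a segment whose copy number differs among C57BL/6J mice. Crb1 carries a frameshift and Cyfip2 a missense change in C57BL/6N, and Mmrn1 is lost in C57BL/6JOlaHsd. The array measures transcript levels and does not read any of these variants.

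The series as a whole was checked first. Tlr2 (probe set 10498992) lay at 4.77 and 4.82 in DKO islets and 6.22 to 6.62 in WT islets at 5 weeks, and at 5.18 to 5.41 in DKO islets and 6.24 to 6.53 in WT islets at 7 months, without overlap. Tlr4 (probe set 10505517) was dim, at group means of 2.86 to 3.30, and was not lower in DKO islets. Where either probe set lies relative to the deleted exons is unknown here, so Tlr4 checks nothing. All 10 islet markers measured were brighter than the median probe set, with gene means of 8.48 to 12.81. Of these, the hormone genes Gcg (-0.69 ± 0.09, limma adjusted p = 0.000443), Sst (-0.88 ± 0.08, adjusted p = 2.6e-05) and Ppy (-0.82 ± 0.17, adjusted p = 0.0121) fell in DKO against WT islets at 7 months, and 0 of 10 changed at 5 weeks, also at an unadjusted p under 0.05. Genes of acinar cells, mostly of digestive enzymes, were also present, and 9 of the 10 measured were brighter than the median probe set. The mean of the 10 was 8.25 to 8.69 in DKO and 5.74 to 7.93 in WT islets at 5 weeks. At 7 months it was 7.33 to 7.84 in DKO and 4.80 to 8.17 in WT islets. The part of these shifts in the differences described next was not tested. Array medians lay between 3.89 and 3.98, and the number of arrays limits the precision.

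Nnt was far higher in DKO than in WT islets at both times by its brighter probe set. That probe set (10412394, chromosome 13, at percentile 86.9 of the single-symbol probe sets by mean signal) had signals of 8.33 and 8.73 in DKO islets at 5 weeks, against 7.01, 7.00, 7.05 and 6.94 in WT islets. At 7 months it had 9.03, 8.76, 8.95 and 8.93 in DKO islets, against 7.35, 7.23, 7.32 and 7.34 in WT islets. The genotypes did not overlap at either time, with gaps of 1.28 and 1.41 between the lowest DKO and the highest WT array. The WT arrays were tightly grouped (SD 0.05 at 5 weeks and 0.06 at 7 months, n = 4 each), and the 2 DKO arrays at 5 weeks were the most spread (SD 0.28), with replicate 1 the lower.

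The difference in Nnt between DKO and WT was 1.53 ± 0.11 (SE of the model; 2.89-fold) at 5 weeks and 1.61 ± 0.09 (3.05-fold) at 7 months. By size it ranked 37th and 62nd of the 21218 probe sets. The change in this genotype difference between the times, 7 months minus 5 weeks, was 0.08 ± 0.14, smaller than its error. In order of level the groups ran from DKO at 7 months through DKO at 5 weeks and WT at 7 months to WT at 5 weeks. The lowest DKO array of all (8.33) stood above the highest WT array of all (7.35). WT islets still gave a signal of about 7 for Nnt, well above the array medians.

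The second Nnt probe set (10407356) was dim, at percentile 45.3, and did not separate the genotypes. It had signals of 4.47 and 4.44 in DKO islets at 5 weeks, against 4.01, 4.48, 4.38 and 3.73 in WT islets. At 7 months it had 4.73, 4.39, 4.22 and 4.39 in DKO islets, against 4.08, 4.36, 4.25 and 4.28 in WT islets. The genotypes overlapped at both times, with differences of 0.30 ± 0.18 and 0.19 ± 0.15. The 2 Nnt probe sets thus disagree in size, and the exons that each one covers are not known here. When the probe sets of a gene were averaged, the Nnt difference became 0.92 at 5 weeks and 0.90 at 7 months.

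**Figure D1:**
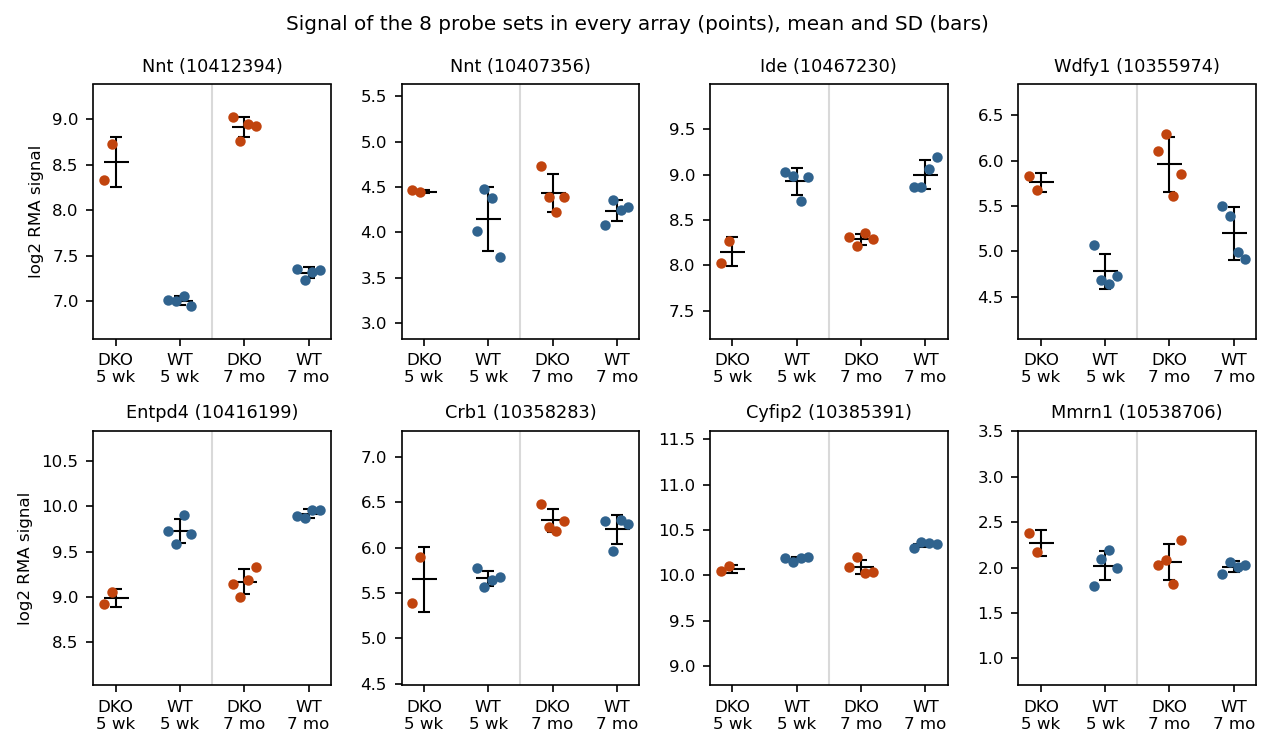
Log2 RMA signal (vertical axes) of the 8 probe sets in DKO (orange) and WT (blue) islets at 5 weeks and 7 months; points are arrays and bars are mean and SD (n = 2 for DKO at 5 weeks, 4 in the other groups).  Nnt (10412394) and Wdfy1 are higher and Ide and Entpd4 lower in every DKO array than in the WT arrays of the same time.

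Ide encodes insulin-degrading enzyme, a zinc metallopeptidase that cleaves insulin, glucagon and amylin, and it was lower in DKO islets. Its probe set (10467230, chromosome 19, percentile 93.0) had signals of 8.03 and 8.27 in DKO islets at 5 weeks, against 9.03, 8.99, 8.71 and 8.98 in WT islets. After 7 months the values were 8.31, 8.22, 8.36 and 8.29 in DKO islets, against 8.87, 8.87, 9.06 and 9.20 in WT islets. All DKO arrays lay below all WT arrays of the same time, with gaps of 0.44 and 0.51. The differences were -0.78 ± 0.12 at 5 weeks and -0.71 ± 0.10 at 7 months, which is 1.72-fold and 1.63-fold lower. The DKO arrays at 7 months differed little among themselves (SD 0.06).

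Fgfbp3, a carrier of fibroblast growth factors that shares the variable segment with Ide, had lower means in DKO islets, with a signal of 4.24 ± 0.04 in DKO islets against 4.53 ± 0.15 in WT islets at 5 weeks (SD, n = 2 and 4), and of 4.11 ± 0.26 in DKO against 4.54 ± 0.21 in WT islets at 7 months (n = 4 each). It did not pass limma's test at either time (-0.30 ± 0.16, adjusted p = 0.498, and -0.43 ± 0.13, adjusted p = 0.0828). The genotypes did not overlap in Fgfbp3 at 5 weeks (gap 0.08) and overlapped at 7 months. In the reference order Btaf1, Cpeb3 and Marchf5 are the measured genes between Fgfbp3 and Ide. At 5 weeks and 7 months Btaf1 differed by -0.32 ± 0.14 and -0.45 ± 0.12. Cpeb3 differed by 0.12 ± 0.13 and -0.02 ± 0.11, and Marchf5 by 0.16 ± 0.11 and 0.04 ± 0.09.

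Entpd4, which encodes a nucleoside diphosphatase of the Golgi apparatus and lysosomes, was lower in DKO islets by about as much as Ide. Its probe set (10416199, chromosome 14, percentile 96.6) had signals of 8.92 and 9.06 in DKO islets at 5 weeks, against 9.73, 9.58, 9.90 and 9.70 in WT islets. After 7 months they were 9.14, 9.00, 9.19 and 9.33 in DKO islets, against 9.89, 9.87, 9.96 and 9.96 in WT islets. The genotypes did not overlap, with gaps of 0.52 and 0.54. The differences were -0.74 ± 0.11 and -0.75 ± 0.09, which is 1.67-fold and 1.69-fold lower. A near copy of the gene, Entpd4b, lies on the same chromosome in the reference, and how far this probe set also reads it is not known.

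Wdfy1, an endosomal FYVE-domain protein that has been described as an adaptor of TLR3 and TLR4 signalling through TRIF, was higher in DKO islets. Its probe set (10355974, chromosome 1, percentile 56.3) had signals of 5.83 and 5.68 in DKO islets at 5 weeks, against 5.07, 4.68, 4.64 and 4.73 in WT islets. In 7-month islets they were 6.11, 6.29, 5.61 and 5.85 in DKO islets, against 5.50, 5.39, 4.99 and 4.92 in WT islets. The genotypes did not overlap, but the gap narrowed to 0.11 at 7 months, where WT replicates 1 and 2 came close to DKO replicate 3; at 5 weeks it was 0.62. The differences were 0.98 ± 0.20 (1.97-fold) and 0.76 ± 0.16 (1.70-fold). The spread within groups at 7 months (SD 0.30 in DKO and 0.29 in WT) was the widest of the 4 genes that separated the genotypes by over 0.6 log2 units.

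Cyfip2, a subunit of the WAVE complex that drives branched actin and a partner of the fragile X protein, was slightly lower in DKO islets. Its probe set (10385391, chromosome 11, percentile 98.0) had signals of 10.05 and 10.10 in DKO islets at 5 weeks, against 10.19, 10.15, 10.19 and 10.20 in WT islets. In 7-month islets its values were 10.09, 10.20, 10.02 and 10.04 in DKO islets, against 10.30, 10.37, 10.35 and 10.34 in WT islets. The genotypes did not overlap, by gaps of only 0.05 and 0.09, and the differences were -0.11 ± 0.08 and -0.25 ± 0.07. These are small beside those of the other separating genes, and at so bright a signal whether the probe set can show a larger change was not tested. A further probe set annotated with both Fndc9 and Cyfip2 was left out by the rule.

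Crb1, an apical polarity protein best known from the retina, did not differ by genotype beyond its spread. Its probe set (10358283, chromosome 1, percentile 64.2) had signals of 5.39 and 5.90 in DKO islets at 5 weeks, against 5.77, 5.57, 5.64 and 5.68 in WT islets. At 7 months it had 6.48, 6.23, 6.18 and 6.29 in DKO islets, against 6.29, 5.96, 6.30 and 6.26 in WT islets. The 2 DKO arrays at 5 weeks lay on either side of all WT arrays, and the differences were -0.02 ± 0.14 and 0.09 ± 0.12.

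Mmrn1, which encodes multimerin 1, a factor V-binding protein of platelets and endothelium, was among the dimmest probe sets in all groups. Its probe set (10538706, chromosome 6, percentile 9.1) had signals of 2.38 and 2.17 in DKO islets at 5 weeks, against 1.80, 2.09, 2.19 and 1.99 in WT islets. At 7 months it had 2.03, 2.08, 1.82 and 2.30 in DKO islets, against 1.93, 2.06, 2.01 and 2.03 in WT islets. The genotypes overlapped at both times, and at this level a loss in either line could not have been seen. Endothelial genes were clearly measured in the same arrays, since 11 of 13 were brighter than the median probe set, whereas 0 of 4 platelet genes were.

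Across the 8 probe sets, 5 did not overlap between DKO and WT at 5 weeks (2 higher and 3 lower in DKO) and 5 at 7 months (2 higher and 3 lower), and they were the same 5 with the same direction, in Nnt, Ide, Wdfy1, Entpd4 and Cyfip2. Over all probe sets, 21.3% did not overlap at 5 weeks (11.2% higher and 10.1% lower in DKO), 10.9% at 7 months (5.55% higher and 5.31% lower), and 3.0% at both times in the same direction. In the fit across all probe sets, 2 of the 8 were higher and 2 lower past an adjusted p of 0.05 at 5 weeks, where 0.933% of all probe sets passed (0.471% higher and 0.462% lower). At 7 months 2 were higher and 3 lower, where 4.51% of all probe sets passed (2.24% higher and 2.27% lower). Nnt, Ide, Wdfy1 and Entpd4 were past it at both times in the same direction, as were 0.485% of all probe sets. Without DKO replicate 1 of the 5-week arrays, 1 of the 8 was past the threshold at 5 weeks. The genes were chosen with this comparison known, so these counts describe the choice and are not evidence of their own.

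Among the 4 genes, Nnt and Wdfy1 were high where Ide and Entpd4 were low. Over the 14 arrays Nnt correlated at 0.88 with Wdfy1, -0.88 with Ide and -0.85 with Entpd4, and Ide at 0.92 with Entpd4, which mostly restates that the genotypes differ in each of them. The correlations of their deviations from the group means were -0.30, 0.39, 0.53 and 0.01 for the same pairs. Within groups, then, the arrays with more Nnt were not the arrays with more Wdfy1 or less Ide and Entpd4. Nnt and Crb1 had the highest correlation of deviations among the 21 pairs, 0.80, and 0.43 over the undivided values. Both genes spread most in the 2 DKO arrays at 5 weeks (SD 0.28 and 0.36). There replicate 1 was the lower and replicate 2 the higher in each (8.33 and 8.73 for Nnt, 5.39 and 5.90 for Crb1). The part of these 2 arrays in the correlation was not tested.

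**Figure D2:**
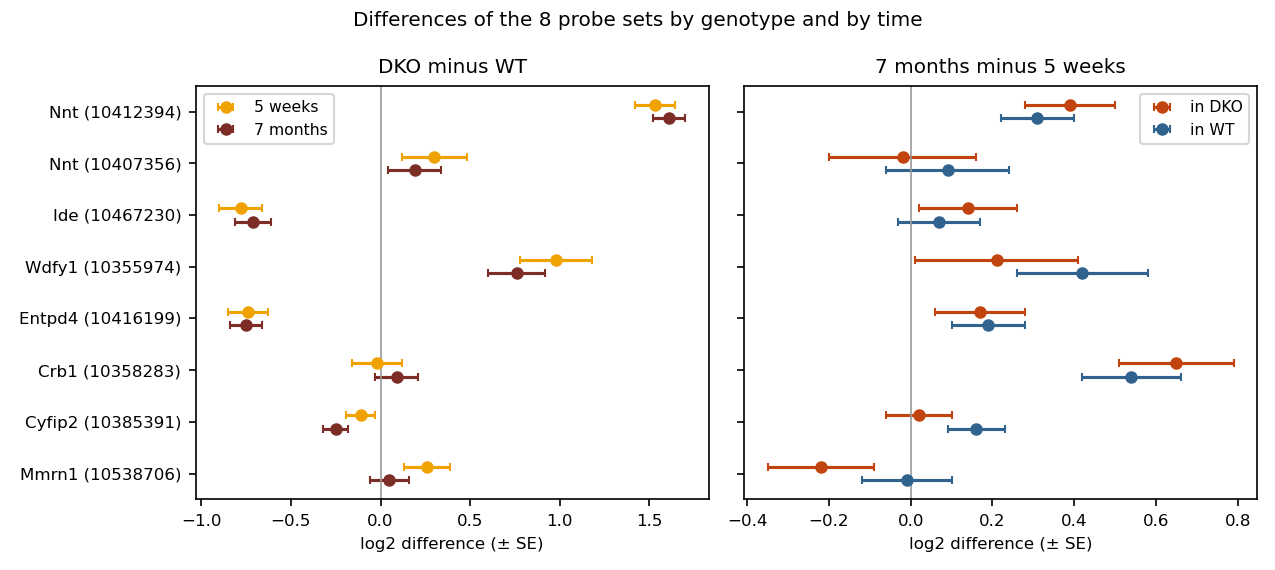
Log2 differences with SE of the model for the 8 probe sets (rows), DKO minus WT on the left and 7 months minus 5 weeks on the right. The genotype differences of Nnt (1.53 and 1.61), Ide (-0.78 and -0.71) and Entpd4 (-0.74 and -0.75) nearly coincide at the 2 times, and Crb1 shows the largest rise over time, 0.65 in DKO and 0.54 in WT.

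The comparison of times within a genotype asks whether these levels moved as mice stayed on the diet and aged, and was not used to choose the genes. Crb1 rose in both genotypes, to 6.30 ± 0.13 (SD, n = 4) in DKO islets at 7 months against 5.65 ± 0.36 (n = 2) at 5 weeks, and to 6.20 ± 0.16 in WT islets at 7 months against 5.66 ± 0.08 at 5 weeks (n = 4 each). The rises were 0.65 ± 0.14 in DKO (limma adjusted p = 0.0135) and 0.54 ± 0.12 in WT (adjusted p = 0.0234), and every 7-month array lay above every 5-week array of the same genotype, which held for 15.6% of all probe sets in DKO and 7.72% in WT. A rise past the threshold in both genotypes was found for 0.669% of all probe sets. Of 13 endothelial genes, 4 rose and 1 fell over time in DKO islets, where 7.22% of all probe sets passed (4.56% higher and 2.65% lower). In WT islets 2 rose and 0 fell, where 2.46% passed (1.33% higher and 1.13% lower). At an unadjusted p under 0.05 in limma's test, 8 were higher and 1 lower in DKO, and 5 higher and 1 lower in WT. Of all 21218 probe sets, 4514 in DKO and 3119 in WT had such a p, in either direction. The mean of the list was 6.88 to 7.04 in DKO islets at 7 months against 6.69 to 6.83 at 5 weeks. In WT islets it was 6.87 to 6.99 at 7 months against 6.69 to 6.88 at 5 weeks. Plvap and Tek rose in both genotypes (Plvap by 0.96 ± 0.15 in DKO and 0.71 ± 0.12 in WT, limma adjusted p = 0.00181 and 0.0075). Prox1 of the same list fell in DKO islets, with 6.65 at 7 months against 7.52 at 5 weeks, and had 7.25 against 7.57 in WT islets. The part of endothelial cells in the rise of Crb1 was not tested. Without DKO replicate 1 of the 5-week arrays the rise in DKO was 0.39 (limma adjusted p = 0.249), and it also did not pass in DKO with only the arrays compared or with the replicate number as a block (adjusted p = 0.111 and 0.0539). In WT the block (adjusted p = 0.061) and the acinar covariate (adjusted p = 0.0653) ended the call. In WT it also did not pass without any 1 of 5 WT arrays (0.51 to 0.53, adjusted p up to 0.0834), namely replicates 2 and 3 at 5 weeks and 1, 3 and 4 at 7 months.

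Nnt (10412394) rose by 0.39 ± 0.11 in DKO islets (limma adjusted p = 0.0473, 4 of 4 arrays at 7 months above both at 5 weeks, gap 0.03) and was higher by 0.31 ± 0.09 in WT islets without passing (adjusted p = 0.0987, all arrays at 7 months above all at 5 weeks, gap 0.18). The call in DKO is fragile, since 19 of the 24 alternatives ended it, with adjusted p up to 0.527 when replicate 1 at 5 weeks was left out and the difference then 0.19. The other probe sets did not pass in either genotype, with Wdfy1 at 0.21 ± 0.20 in DKO and 0.42 ± 0.16 in WT (adjusted p = 0.604 and 0.231) and Cyfip2 at 0.02 ± 0.08 and 0.16 ± 0.07 (adjusted p = 0.944 and 0.266). In all, 2 of the 8 rose and 0 fell in DKO islets, where 7.22% of all probe sets passed (4.56% higher and 2.65% lower), and 1 rose and 0 fell in WT islets, where 2.46% passed (1.33% higher and 1.13% lower). Over time in DKO and WT islets, Ide (0.14 ± 0.12 and 0.07 ± 0.10) and Entpd4 (0.17 ± 0.11 and 0.19 ± 0.09) moved little beside their genotype differences.

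Promoter sequence was available in RefSeq (build GRCm38.p6) for 4 of the 7 genes, Ide, Cyfip2, Crb1 and Mmrn1. Those of Ide and Cyfip2 are shown because both genes were lower in every DKO array, and they differ in make-up. Each holds 300 bases on the minus strand, Ide at chr19:37334495-37334794 and Cyfip2 at chr11:46312309-46312608. Each window runs from 250 bases before the start of the gene to 50 after it. Both strands were searched for TATAAA, the core of the TATA box. They were also searched for CCAAT, the CCAAT box. The last motif searched was GGGCGG, the core of the GC box. Capitals mark the matches, and none overlap.

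Ide: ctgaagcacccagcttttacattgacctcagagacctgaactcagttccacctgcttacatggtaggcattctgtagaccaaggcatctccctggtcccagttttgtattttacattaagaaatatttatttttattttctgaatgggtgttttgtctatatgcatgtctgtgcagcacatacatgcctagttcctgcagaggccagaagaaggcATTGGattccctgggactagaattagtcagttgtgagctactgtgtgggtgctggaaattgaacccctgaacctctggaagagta

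Cyfip2: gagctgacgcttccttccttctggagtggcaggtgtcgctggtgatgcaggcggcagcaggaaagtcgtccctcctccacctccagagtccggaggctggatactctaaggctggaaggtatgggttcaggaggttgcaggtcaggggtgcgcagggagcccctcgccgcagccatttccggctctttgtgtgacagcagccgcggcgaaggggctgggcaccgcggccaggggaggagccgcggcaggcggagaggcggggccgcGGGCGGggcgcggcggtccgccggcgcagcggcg

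The Ide window has 44.0% G and C and 0 CG dinucleotides, as few as 5.4% of the 32851 promoters in the table, and 1 match to CCAAT. The Cyfip2 window has 70.7% G and C, 29 CG dinucleotides and 1 match to GGGCGG. Of all promoters of this length, 13.6% hold the first motif, 37.4% the CCAAT box and 35.7% the core of the GC box. The matches are descriptions of the reference sequence, which is that of C57BL/6J, and the array does not read these bases.

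The neighbours of each gene were examined to see whether its difference reached beyond it. For each gene the nearest 5 measured genes on each side in the reference order were taken, 70 in all. Of these, 0 rose and 3 fell in DKO against WT islets at 5 weeks, and 1 rose and 4 fell at 7 months, against 0.933% and 4.51% of all probe sets that passed in either direction. Their median differences were -0.02 and -0.04, beside 0.009 and 0.014 over all probe sets. Limma's unadjusted p was under 0.05 for 2574 of all 21218 probe sets at 5 weeks and 3879 at 7 months, in either direction.

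Next to Nnt, the nearest measured genes were Fgf10, a growth factor, and Paip1, a partner of poly(A)-binding protein. Fgf10 was dim at 2.33 in DKO and 2.38 in WT islets at 5 weeks, and 2.37 against 2.42 at 7 months. Paip1 differed by -0.09 ± 0.10 at 5 weeks and 0.22 ± 0.08 at 7 months (limma adjusted p = 0.81 and 0.179). Further out, the chemokine gene Ccl28 fell by 1.10 ± 0.21 at 5 weeks (adjusted p = 0.0217; 5.93 in DKO and 7.03 in WT) and was at -0.61 ± 0.17 at 7 months (adjusted p = 0.0582), and Tmem267, a membrane protein gene, fell at 7 months (-0.74 ± 0.11, adjusted p = 0.00179) and was at -0.04 ± 0.14 at 5 weeks. Of the 10 neighbours of Nnt, 0 rose with it in limma's test at either time (0 and 1 at an unadjusted p under 0.05).

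Near Wdfy1, 1 of 10 neighbours changed, and by more than Wdfy1 itself. Dock10, an exchange factor for small GTPases, stands 4 measured genes away and had differences of -1.69 ± 0.21 at 5 weeks and -2.18 ± 0.17 at 7 months (limma adjusted p = 0.00093 and 4.8e-06). It averaged 5.51 ± 0.29 in DKO islets against 7.20 ± 0.04 in WT islets at 5 weeks (SD, n = 2 and 4), and 5.16 ± 0.44 in DKO against 7.35 ± 0.11 in WT islets at 7 months (n = 4 each), with no overlap at either time. Wdfy1 and Dock10 thus differed in opposite directions.

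Beside Entpd4, the next measured gene, Loxl2, a lysyl oxidase of the extracellular matrix, was lower in DKO islets at both times (-1.11 ± 0.12 and -0.48 ± 0.10, limma adjusted p = 0.000437 and 0.014). It rose over time in DKO islets (0.82 ± 0.12, adjusted p = 0.00124), with 7.01 at 7 months against 6.20 at 5 weeks. Near Ide, Btaf1, which encodes an ATPase that removes TATA-binding protein from DNA, fell at 7 months (-0.45 ± 0.12, adjusted p = 0.0409) and was at -0.32 ± 0.14 at 5 weeks (adjusted p = 0.391); whether the times differ in it was not tested. Of 24 alternatives, 13 ended the 7-month call of Btaf1, 2 that of Loxl2 and 5 the 5-week call of Ccl28 (limma adjusted p up to 0.12, 0.0941 and 0.159). Hhex, a transcription factor of delta cells that lies near Ide, did not pass (-0.46 ± 0.20 and -0.21 ± 0.16). Among the 10 neighbours of Ide at 5 weeks, 0 were higher and 4 lower at an unadjusted p under 0.05 in limma's test. At 7 months 1 was higher and 2 were lower. The median differences of these neighbours were -0.24 and -0.04, beside 0.009 and 0.014 over all probe sets. Near Crb1 the dim complement gene Cfhr2 rose at 7 months (0.97 ± 0.13, adjusted p = 0.000658; 3.55 in DKO and 2.59 in WT), and 0 of 10 neighbours of Cyfip2 and 0 of 10 of Mmrn1 passed in limma's test in either genotype comparison (0 and 1 at an unadjusted p under 0.05, at each time).

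**Figure D3:**
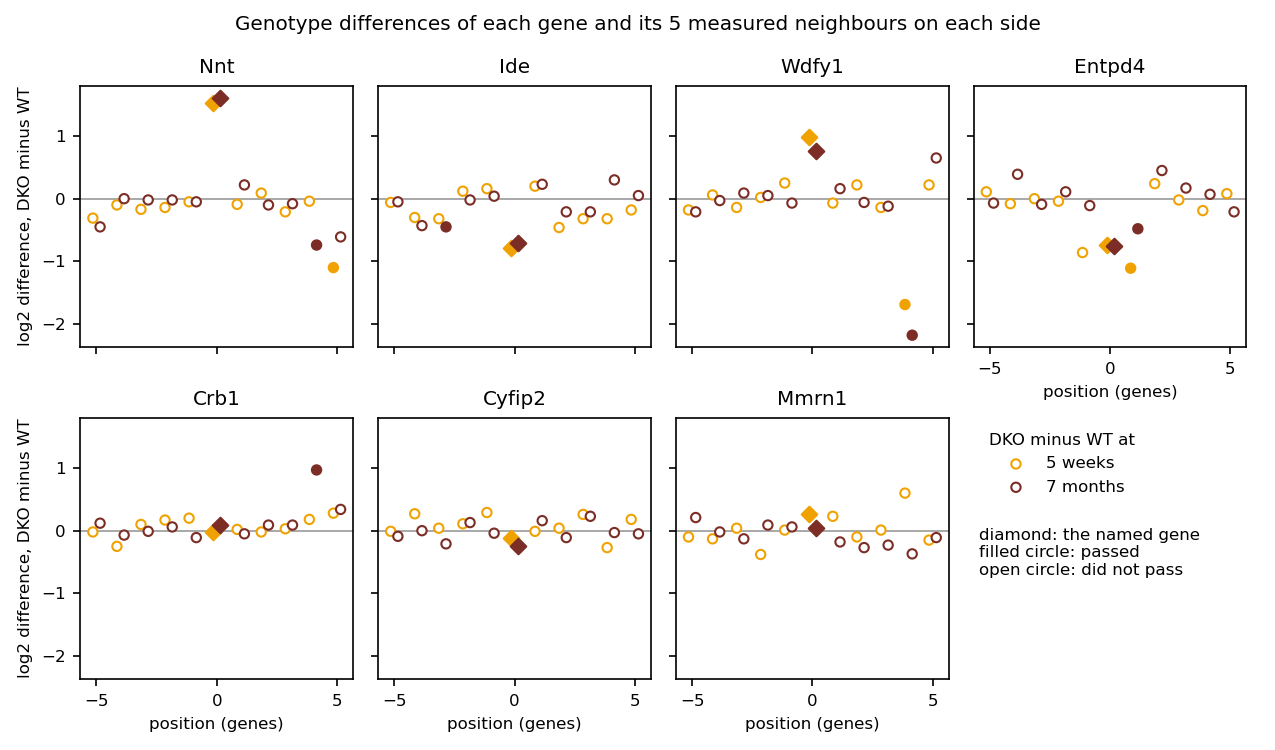
DKO minus WT log2 difference (vertical axis) of each described gene (diamonds) and of the nearest 5 measured genes on each side (circles, filled where limma's adjusted p is under 0.05), at 5 weeks (yellow) and 7 months (dark red), against position counted in genes. Nnt stands at 1.53 and 1.61 above all its neighbours, of which Ccl28 lies lowest (-1.10 at 5 weeks), while Wdfy1 has Dock10 at -1.69 and -2.18 and Entpd4 has Loxl2 at -1.11 and -0.48 nearby.

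The chromosomes of the probe sets that passed at both times in the same direction were counted, since the described genes lie on chromosomes 13, 19, 1, 14, 11 and 6 while Tlr2 lies on chromosome 3 and Tlr4 on chromosome 4. Such calls numbered 103, of which 18 of 1262 tested probe sets (1.43%) were on chromosome 1, 17 of 1271 (1.34%) on chromosome 4, 8 of 747 (1.07%) on chromosome 14, 6 of 771 (0.778%) on chromosome 13, 3 of 695 (0.432%) on chromosome 19 and 4 of 1145 (0.349%) on chromosome 6. Chromosome 3 had 6 of 999 (0.601%), and chromosomes 12 (6 of 679, 0.884%) and 7 (14 of 1798, 0.779%), which hold none of these genes, were above or level with chromosome 13. Chromosomes 9, 11 and X had 0 of 1295, 1638 and 784, although 4, 3 and 7 of their probe sets passed limma's test at 5 weeks and 54, 50 and 34 at 7 months. Chromosomes 3 and 4 together had 1.01% and all other chromosomes 0.423%, with 80 of the 103 calls outside those 2. These counts include Wdfy1 on chromosome 1, Nnt on 13, Entpd4 on 14 and Ide on 19, which were chosen with their differences known, and the targeted Tlr2 on chromosome 3. Neighbouring probe sets are not independent, and no test was made of these shares.

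**Figure D4:**
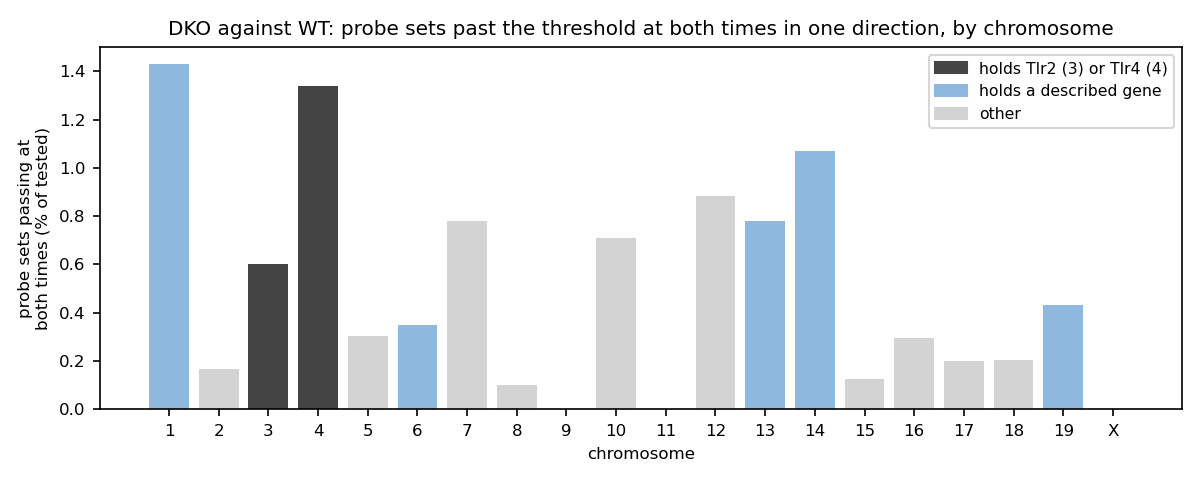
Share of tested probe sets on each chromosome (bars, percent) that passed limma's test in DKO against WT at both 5 weeks and 7 months in the same direction. The chromosomes of Tlr2 and Tlr4 are dark, those of the described genes blue; chromosomes 1 (1.43%) and 4 (1.34%) stand highest.

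The genes whose pattern over the 14 arrays was most like that of Nnt, among 10608 probe sets brighter than the median, were Ttc39b (r = 0.977), Eif3i, an initiation factor subunit (0.969), Mthfd1l, a mitochondrial folate enzyme (0.968), Fam149b (0.957) and Trnp1 (0.952). The most opposite were Ceacam1, an adhesion receptor (r = -0.968), Gpd2, the mitochondrial glycerol phosphate dehydrogenase (-0.962), Pitpnm2 (-0.952), Pcdh15 (-0.948) and Dock10 (-0.940). These correlations are descriptions over arrays that fall into genotype groups. For the deviations from group means they were 0.33 for Ttc39b, 0.64 for Eif3i, 0.63 for Mthfd1l, 0.36 for Fam149b and -0.27 for Trnp1. For the opposite genes they were -0.19 for Ceacam1, -0.44 for Gpd2, -0.68 for Pitpnm2, -0.31 for Pcdh15 and 0.31 for Dock10. Of the 10, Ttc39b, Eif3i and Trnp1 lie on chromosome 4. Ttc39b, for example, averaged 8.71 in DKO and 7.78 in WT islets at 5 weeks, and 8.89 against 7.83 at 7 months. Gpd2, which passes reducing equivalents from the cytosol into mitochondria, averaged 8.20 in DKO and 8.88 in WT islets at 5 weeks, and 7.79 against 8.77 at 7 months.

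The other genes had likenesses of their own. Entpd4 was closest to Ndufs5, a complex I subunit gene on chromosome 4 (r = 0.990, and 0.84 for the deviations from group means), then to Tmem260 on its own chromosome 14 and to Cnksr1 (0.964 each). Ide was closest to Tlr2 itself (0.958), to the small nucleolar RNA gene Snord73b (0.948), also on chromosome 3, and to Rflna (0.932). Wdfy1 was closest to Hyi (0.920) and Nudc (0.917), both on chromosome 4, and to Gramd1a (0.916). Crb1, which followed time rather than genotype, was closest to Plvap, an endothelial diaphragm protein (0.959), Ehd4 (0.950) and Kdm1b (0.946). Cyfip2 was closest to Hpcal1 (0.957), Phka2 (0.936) and Psap (0.935), and the dim Mmrn1 to Wsb2 (0.834), Aldh3b3 (0.834) and Comtd1 (0.824).

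Because Nnt supplies mitochondrial NADPH, a list of genes tied to NADPH supply, folate metabolism and redox defence was described, of which 25 of 27 were measured. The list holds folate enzymes such as Mthfd1l, cytosolic enzymes and catalase, so not every member makes NADPH or works in mitochondria. In DKO against WT islets 2 rose and 0 fell at 5 weeks, where 0.933% of all probe sets passed (0.471% higher and 0.462% lower). At 7 months 3 rose and 0 fell, where 4.51% passed (2.24% higher and 2.27% lower). At an unadjusted p under 0.05 in limma's test, 8 were higher and 0 lower at 5 weeks, and 5 higher and 2 lower at 7 months. Of all 21218 probe sets, 2574 at 5 weeks and 3879 at 7 months had such a p, in either direction. The median differences were 0.08 and 0.13, beside 0.009 and 0.014 over all probe sets. Mthfd1l rose at both times, with a signal of 6.82 ± 0.10 in DKO islets against 6.19 ± 0.08 in WT islets at 5 weeks (SD, n = 2 and 4), and of 6.95 ± 0.11 in DKO against 6.42 ± 0.11 in WT islets at 7 months (n = 4 each). Its differences were 0.64 ± 0.10 (limma adjusted p = 0.00897) and 0.53 ± 0.08 (adjusted p = 0.0024), and the genotypes did not overlap. Aldh1l2, a mitochondrial folate dehydrogenase that makes NADPH, rose 2.53-fold at 5 weeks (1.34 ± 0.23, adjusted p = 0.0145; 8.47 in DKO and 7.13 in WT) and was at 0.57 ± 0.19 at 7 months (adjusted p = 0.109).

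At 7 months Me1, the cytosolic NADP-linked malic enzyme (0.33 ± 0.07, limma adjusted p = 0.0222), and Cat, which encodes catalase (0.37 ± 0.09, adjusted p = 0.0271), also rose in DKO islets. Idh2, the mitochondrial NADP-linked isocitrate dehydrogenase, and Glud1, glutamate dehydrogenase, did not pass, at 0.00 ± 0.19 and -0.07 ± 0.11 at 5 weeks and -0.20 ± 0.15 and 0.16 ± 0.09 at 7 months. The calls of Me1 and Cat at 7 months were ended by 7 and 8 of 24 alternatives (limma adjusted p up to 0.0815 and 0.0959), among them 5 single arrays left out for each, and that of Mthfd1l at 7 months by 0. The 5-week calls of Mthfd1l and Aldh1l2 were lost when either DKO array was left out (limma adjusted p up to 0.0671 and 0.088). In the same comparisons the acinar genes, of which 0 of 10 passed in limma's test (2 higher at an unadjusted p under 0.05 at each time), had median differences of 1.18 and 1.16. Adding the mean of the acinar genes to the model left 2 genes of all the lists of related genes past the threshold at 5 weeks, against 2 without it, and 3 at 7 months, against 5 without it.

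Over time, 4 of the 25 rose and 0 fell in DKO islets, where 7.22% of all probe sets passed, and 1 rose and 0 fell in WT islets, where 2.46% did. These were Prdx3, a mitochondrial peroxiredoxin (0.46 ± 0.12, limma adjusted p = 0.0274), Idh1, the cytosolic isocitrate dehydrogenase (0.59 ± 0.16, adjusted p = 0.0421), and the malic enzyme genes Me2 (0.45 ± 0.13, adjusted p = 0.0428) and Me3 (0.80 ± 0.23, adjusted p = 0.0486) in DKO, and Me3 in WT (0.89 ± 0.19, adjusted p = 0.0217). Me3, which makes mitochondrial NADPH from malate, was 6.43 in DKO islets at 7 months against 5.62 at 5 weeks, and 6.41 in WT islets at 7 months against 5.51 at 5 weeks. Its genotype differences were 0.11 ± 0.23 and 0.02 ± 0.19. These calls over time were fragile. Of 24 alternatives in DKO islets, 6 ended the call of Prdx3, 14 that of Idh1, 15 that of Me2 and 14 that of Me3 (limma adjusted p up to 0.290, 0.244, 0.442 and 0.207), and 5 ended that of Me3 in WT islets (up to 0.0718).

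**Figure D5:**
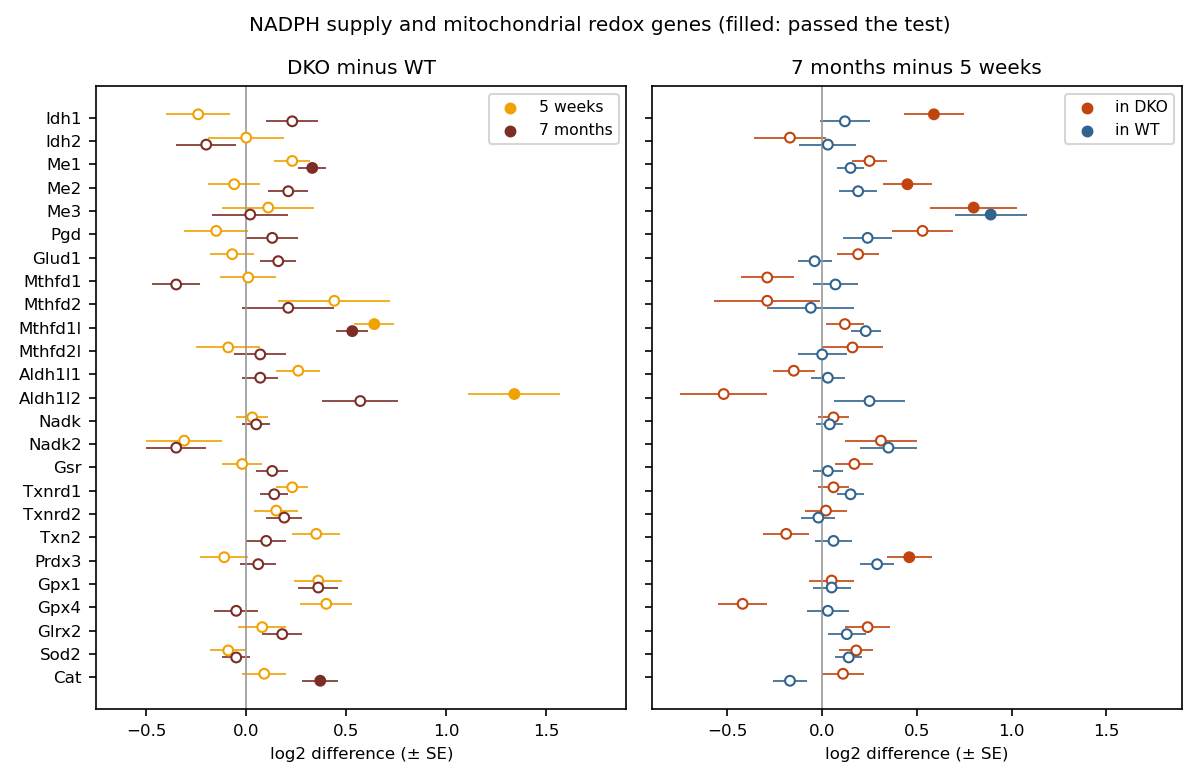
Log2 differences with SE of the 25 measured genes of the list for NADPH supply, folate metabolism and redox defence (rows), DKO minus WT on the left and 7 months minus 5 weeks on the right, filled where limma's adjusted p is under 0.05. Mthfd1l passes at both times on the left (0.64 and 0.53), and Me3 passes in both genotypes on the right (0.80 and 0.89).

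Relatives of the other genes were taken from lists too. Beside the counts here and in the next paragraph, 0.933% of all probe sets passed by genotype at 5 weeks and 4.51% at 7 months. Over time 7.22% passed in DKO and 2.46% in WT islets. Limma's unadjusted p was under 0.05, in either direction, for 2574 of all 21218 probe sets by genotype at 5 weeks and 3879 at 7 months. Over time it was under 0.05 for 4514 in DKO and 3119 in WT islets. Among the 5 measured genes with other reported C57BL/6 substrain variants (Fgfbp3, Adamts12, Dock2, Zp2 and Herc2) 0 passed in limma's test at either time (0 and 1 at an unadjusted p under 0.05), and Herc2, a large ubiquitin ligase, rose over time in WT islets (0.30 ± 0.07, adjusted p = 0.0306). Of the 8 measured nucleotidases related to Entpd4, Entpd3 rose in DKO against WT islets at 7 months (0.36 ± 0.08, adjusted p = 0.0175; 9.12 in DKO and 8.76 in WT) and over time in DKO islets (0.53 ± 0.10, adjusted p = 0.00444), and 7 did not pass. Of 5 peptidases related to Ide, 0 passed by genotype in limma's test (2 and 0 at an unadjusted p under 0.05), while Ece1 (0.47 ± 0.10, adjusted p = 0.0135) and Ece2 (0.89 ± 0.16, adjusted p = 0.00444), endothelin-converting enzymes, rose and Pitrm1, a mitochondrial peptidase, fell by 0.41 ± 0.11 over time in DKO islets (adjusted p = 0.0371). Of 24 alternatives, 12 ended the call of Herc2, 5 that of Entpd3 by genotype and 2 over time, 3 those of Ece1 and of Ece2, and 9 that of Pitrm1 (limma adjusted p up to 0.166).

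Of 9 genes of the WAVE complex and its partners and of 5 genes related to Wdfy1, among them Tlr3 and Ticam1, which encodes TRIF, 0 passed in limma's test in any of the 4 comparisons. At an unadjusted p under 0.05 there were 1, 3, 3 and 1 of the WAVE genes at 5 weeks, at 7 months, over time in DKO and over time in WT, and 1, 1, 2 and 0 of the Wdfy1 genes. Cyfip1 was not analysed here. Of 6 polarity genes that work with Crb1, the scaffold gene Lin7a rose in DKO against WT islets at 7 months (1.17 ± 0.29, adjusted p = 0.033) and over time in DKO islets (2.35 ± 0.35, 5.11-fold, adjusted p = 0.00119), where it was 6.44 ± 0.42 at 7 months against 4.08 ± 0.30 at 5 weeks (SD, n = 4 and 2). Lin7c, another scaffold gene, rose over time in DKO islets (0.42 ± 0.11, adjusted p = 0.039). Of 24 alternatives, 7 ended the 7-month genotype call of Lin7a, 0 its call over time in DKO, and 14 the call of Lin7c (limma adjusted p up to 0.0960 for Lin7a and 0.193 for Lin7c).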

How the data were processed

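Islet RNA of 14 mice was hybridised to whole-transcript arrays, 1 per sample. The authors deposited log2 values from RMA, per the submitters' processing notes, and these were not changed further. The software and its version are details that the sources do not give. Of 35556 probe sets, 21218 carried 1 gene symbol and were tested, 1881 carried several and 12457 none. Symbols were updated by Entrez identifier for 21185 probe sets, and 30 genes kept the platform's symbol. Chromosomes and gene order came from the RefSeq table of GRCm38.p6.

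In R 4.3.3, lmFit and eBayes of limma 3.58.1 were run at their default prior; each of the 4 groups got its own mean, over all 14 arrays together, and p-values were adjusted by Benjamini-Hochberg over all 21218 probe sets within each comparison and judged at 0.05. They judge each difference of group means against the spread between these samples. For neighbours and lists the brightest probe set of a gene was used. The genes and lists were chosen with earlier results of these data known. Genes named besides the 7 were neighbours past the threshold (3 per gene at most) and those next to Nnt, list genes past it (4 per list and comparison at most), Fgfbp3, and those of most similar pattern. Hhex, Cpeb3, Marchf5, Idh2, Glud1, Gcg, Sst, Ppy, Plvap, Tek and Prox1 were picked after their values were seen. Of the other marker lists, 0 of 4 glial genes were brighter than the median probe set.

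In a simulation of 21218 probe sets on 14 arrays grouped as here, 2-fold changes were recovered in 88% (DKO against WT at 5 weeks), 94% (at 7 months), 82% (time in DKO) and 100% (time in WT), and 1.5-fold changes in 48%, 70%, 52% and 56%. Of the simulated calls, 7.3%, 6.7%, 6.86% and 4.81% were false in the same order. The simulated noise was normal and independent between probe sets, with 50 probe sets changed at each fold, and real arrays may differ from this. Alternatives varied the arrays fitted, the prior, the filter on dim probe sets, the choice of probe sets, the normalization, the covariates (replicate number, a 5 or 7 found in each description, acinar score) and left out each array in turn. A single DKO array left at 5 weeks was taken to vary as much as arrays elsewhere. Letters in the descriptions differ by group and cannot be told apart from it. Python 3.11.15 with matplotlib 3.10.9 drew the figures.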

Additional observations from a re-analysis of the deposited data

Results flagged for a closer look

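In 24 groups of 4 arrays, the highest and lowest array of each described probe set was compared with the rest by Dixon's test at the 95% level, and chance flags about 1 group in 20. Ide was 8.71 in replicate 3 of WT islets at 5 weeks, below the other 3 arrays of that group (8.98 to 9.03) and still above both DKO arrays (8.03 and 8.27). Crb1 was 5.96 in replicate 2 of WT islets at 7 months, below the other 3 (6.26 to 6.30) and above all WT arrays at 5 weeks (5.57 to 5.77).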

How the results depend on the processing

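The genotype differences of Nnt (10412394), Ide, Wdfy1 and Entpd4 kept their direction under all 24 alternatives. Since the genes were chosen with these differences in the same arrays known, this is a description and not evidence of its own. The same holds for the counts of described probe sets by genotype given below. At 5 weeks and 7 months they ranged over 0.92 to 1.73 and 0.90 to 1.66 for Nnt, -0.90 to -0.66 and -0.75 to -0.62 for Ide, 0.79 to 1.07 and 0.65 to 0.88 for Wdfy1, and -0.81 to -0.66 and -0.81 to -0.70 for Entpd4. Within arrays of description number 5 and of number 7, DKO minus WT was 1.30 and 1.76 at 5 weeks and 1.66 and 1.56 at 7 months for Nnt, -0.84 and -0.72, then -0.63 and -0.78 for Ide, 0.97 and 0.98, then 0.61 and 0.92 for Wdfy1, and -0.90 and -0.58, then -0.76 and -0.75 for Entpd4 (1 or 2 arrays a group).

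Counts past the threshold moved more, and the cause was not tested. With only the arrays compared, the 5, 2 and 1 described probe sets at 7 months and over time in DKO and WT became 3, 0 and 2, the count of related list genes was 1 at 7 months (as reported 5) and 1 over time in DKO (as reported 10), and the count of all calls was 120 at 5 weeks (as reported 198), 528 at 7 months (as reported 957) and 325 over time in DKO (as reported 1531). With an acinar covariate the described probe sets were 3 at 7 months, 1 over time in DKO and 0 over time in WT, the list genes 3, 4 and 0, and all calls 101 at 5 weeks and 947 over time in DKO. Over time in DKO the 2 described probe sets became 1 with the mean of a gene's probe sets, with repeated quantile normalization, with median centring and with the label number as a term. The count of list genes over time in WT was 1 under quantile normalization and under median centring (as reported 2), and in DKO 6 under median centring (as reported 10). The trended robust prior gave 298 calls at 5 weeks.

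The replicate numbers do not pair the arrays, since 1 of 18 same-numbered pairs correlated above 0.1 in deviations from group means (-0.163 to 0.158). With the replicate block 0 described probe sets passed over time in DKO and 0 in WT, 5 list genes in DKO and 1 in WT, and 124 of all probe sets at 5 weeks and 873 over time in DKO.

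Leaving out each array in turn gave 1 to 4, 4 to 5, 0 to 2 and 0 to 2 described probe sets past the threshold at 5 weeks, at 7 months, over time in DKO and over time in WT, and 0 to 3, 2 to 7, 1 to 12 and 0 to 2 list genes. Neighbours numbered 2 to 4 and 4 to 9 at the 2 times, and all calls 46 to 241, 564 to 1832, 377 to 2179 and 249 to 605. The lowest counts of described probe sets at 5 weeks (1), of all calls at 5 weeks (46) and over time in DKO (377) came without replicate 1 of DKO at 5 weeks, and the 9 neighbours and 1832 calls at 7 months without replicate 2 of DKO. The 5 list genes at 7 months became 2 without DKO replicate 1, 3 or 4 or WT replicate 1, and the 2 at 5 weeks became 0 without either DKO array. Over time in DKO the count of list genes was 1 without DKO replicate 1 at 5 weeks. Mmrn1 and the second Nnt probe set were too dim for the filter on dim probe sets and have no value there.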
